A study of Homo sapiens with 4 samples.

Results

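The genes described here are 10 members of the BCL2 family, out of 25027 symbols or identifiers in the tables. They are the BH3-only genes BMF, BCL2L11, BID, BAD and BIK, the anti-apoptotic genes MCL1, BCL2L1, BCL2 and BCL2L2, and the effector gene BAK1. BMF was taken up because its level from 24 h to 48 h was already known from these tables to be among the most raised under both siRNAs, and the other 9 were added by family. The values of BMF over time are therefore a description of what chose it. A gene's level is the sum of the FPKM values (fragments relative to transcript length and sequencing depth) of its RefSeq transcripts, of which the 10 genes had 42.

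The cells were RPE1, a telomerase-immortalised human line of retinal pigment epithelium. All cells received 10 nM of a Stealth siRNA with Lipofectamine RNAi MAX, so the control groups carry an siRNA and the reagent too. The 4 groups were negative control siRNA at 24 h, SAF-A siRNA at 24 h, negative control siRNA at 48 h and SAF-A siRNA at 48 h. SAF-A, the product of HNRNPU, is a nuclear matrix protein with affinity for both RNA and DNA. Each group was 1 culture and 1 library of RNA depleted of ribosomal RNA, and the knockdown used a single siRNA sequence. No difference below has a replicate check and no p-value is given. Comparisons that use the same library are not independent of each other.

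The BCL2 family controls whether the outer mitochondrial membrane is opened, the step that releases cytochrome c and commits a cell to apoptosis. The effectors BAK and BAX form the pores, the anti-apoptotic proteins hold them in check, and the BH3-only proteins respond to stress by binding the anti-apoptotic proteins or the effectors. The short helix they share, the BH3 domain, is the part that is bound, and anti-apoptotic members and effectors carry a version of it as well. Much of the family's control is exerted on protein stability and location, which RNA levels do not show.

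The BH3 codons are shown because they are what unites the 10 genes, and because some transcripts of BMF and BCL2L11 lack them. Each stretch is 12 codons (36 bases) of the coding strand, read 5′ to 3′ from GRCh37 (hg19) with the coding annotation of GENCODE. Capitals mark the codon of the conserved leucine (methionine in BCL2L2) and the codons of the small residue and the aspartate that follow it. The pattern searched was a hydrophobic residue, 3 residues, leucine or methionine, 2 residues, a hydrophobic residue, a small residue, aspartate, 1 residue and a hydrophobic residue, and it was found once in each protein.
BMF, chr15:40396402-40396437, minus strand: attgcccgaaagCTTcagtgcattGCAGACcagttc
BCL2L11, chr2:111907668-111907703, plus strand: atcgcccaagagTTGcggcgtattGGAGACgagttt
BID, chr22:18222187-18222222, minus strand: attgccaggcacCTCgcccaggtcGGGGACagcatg
BAD, chr11:64039100-64039135, minus strand: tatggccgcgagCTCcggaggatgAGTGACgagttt
BIK, chr22:43523710-43523745, plus strand: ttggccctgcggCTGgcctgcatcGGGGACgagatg
MCL1, chr1:150551347-150551382, minus strand: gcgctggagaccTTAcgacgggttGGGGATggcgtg
BCL2L1, chr20:30309731-30309766, minus strand: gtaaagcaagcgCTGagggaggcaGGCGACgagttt
BCL2, chr18:60985588-60985623, minus strand: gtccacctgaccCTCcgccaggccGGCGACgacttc
BCL2L2, chr14:23777100-23777135, plus strand: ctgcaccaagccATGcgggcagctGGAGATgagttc
BAK1, chr6:33543170-33543205, minus strand: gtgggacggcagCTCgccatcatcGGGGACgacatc
Without gaps, the BMF stretch had the same base as BCL2L11 at 25 of 36 positions, as BAD at 21, BIK at 20, BAK1 at 18, BCL2L2 at 17, BID at 16, BCL2 and BCL2L1 at 15, and MCL1 at 10.

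The mapped reads implied by the deposited values numbered 28083822 to 30701282 in 3 libraries and 1216740 in the SAF-A 48 h library, which stands apart in depth. Values from that library rest on fewer reads, and those of the members and of the genes named from lists are given below with their estimated reads. HNRNPU, the targeted gene, was at 91.2 and 84.6 FPKM in the control libraries of 24 h and 48 h, and at 10.4 and 9.24 FPKM in those of SAF-A siRNA. Among cytoskeletal genes, VIM was at 2145 FPKM under control and 1845 FPKM under SAF-A siRNA at 24 h, then 1586 and 3312 FPKM at 48 h. In the same order KRT8 was at 41.9, 36.8, 63.9 and 15.4 FPKM and KRT18 at 142, 124, 229 and 23.3 FPKM, though the rows of these keratins had the status FAIL in the first 3 libraries. VIM was thus highest and both keratins lowest in the SAF-A 48 h library, and the part of this in the differences of the members was not tested. Of 7 genes of differentiated pigment epithelium, 5 were below 1 FPKM in every library and RPE65 was at 0 in all 4. The sum of these 7 lay between 7.36 and 13.4 FPKM, nearly all of it MITF and OTX2. Of 10 markers of leukocytes, endothelium, other epithelia, neurons and muscle, 9 were below 1 FPKM in every library, CD3E and CDH1 were at 0 in all 4, and the sum was between 7.55 and 11.6 FPKM, mostly CD68. In bulk RNA, fewer cells of a type and less RNA per cell cannot be told apart.

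Changes were taken as differences in log2(FPKM + 1) and called where at least 2-fold. They were taken over the 11631 genes that averaged 1 FPKM or more across libraries. The scale understates changes of low genes. Of the 10 members, 9 passed this filter, and BIK, with a mean of 0.194 FPKM, did not.

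At 24 h, SAF-A siRNA left 0 of the 9 members at least 2-fold higher than control siRNA, where 1.83% of all tested genes were, and 0 at least 2-fold lower, where 1.25% were. The median difference of the members was -0.05 (log2), beside -0.06 over all tested genes. At 48 h, 0 of 9 were at least 2-fold higher under SAF-A siRNA, against 14.2% of tested genes. In the other direction, 4 of 9 were at least 2-fold lower, namely MCL1, BCL2L2, BCL2 and BAK1, against 20.1% of tested genes. The median of the members was then -0.59, beside -0.12 over all tested genes.

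From 24 h to 48 h under control siRNA, BMF alone of the 9 was at least 2-fold higher, against 1.79% of tested genes, and 0 were at least 2-fold lower, against 1.36%. Under SAF-A siRNA over the same time, BMF was again the 1 member at least 2-fold higher, against 15.1% of tested genes. There 3 were at least 2-fold lower, MCL1, BCL2L2 and BCL2, against 17.8%. Nothing is read from the counts over time, since BMF was chosen on them. The medians of the members were 0.28 under control siRNA and -0.15 under SAF-A siRNA, with 0.03 and -0.02 over all tested genes.

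All 10 members are longer than 300 nt, and among the 11053 tested genes of 300 nt or more the shares were much smaller where the SAF-A 48 h library was not used. Between the siRNAs at 24 h, 0.389% of these genes were higher and 0.244% lower, and over time under control siRNA 0.561% and 0.425%. The shares were 14.3% and 18.5% between the siRNAs at 48 h, and 15.5% and 16.0% over time under SAF-A siRNA.

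**Figure D1:**
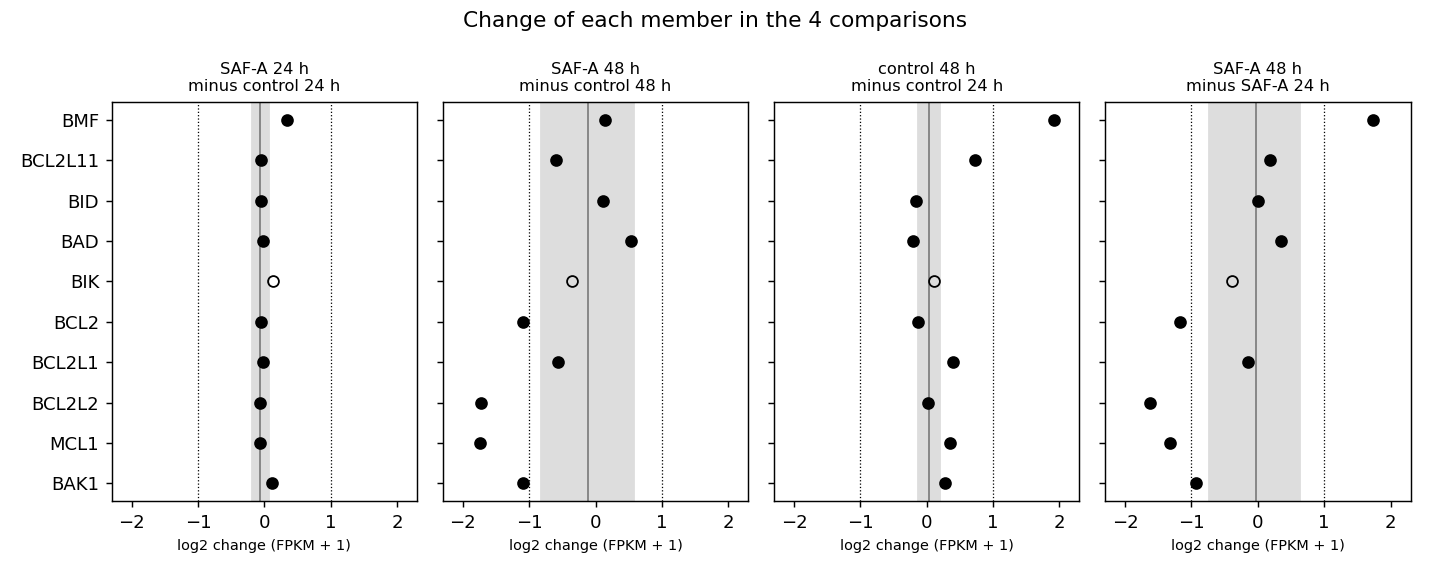
Differences in log2(FPKM + 1) of each member (points) in the 4 comparisons (panels); the grey band spans the quartiles of all 11631 tested genes, the grey line is their median, dotted lines mark a 2-fold difference and the open circle is BIK, below the filter. At 24 h the members lay between -0.07 and 0.33, and at 48 h MCL1 and BCL2L2 lay lowest, at -1.74 and -1.72.

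BMF (chromosome 15, 40380091 to 40401085, minus strand, hg19) encodes a BH3-only protein known to be held at the actin cytoskeleton through dynein light chain and to be freed by loss of attachment. Its level was 1.97 FPKM under control siRNA at 24 h (deposited 95% interval 1.41 to 2.54, about 241 reads), 2.74 under SAF-A siRNA at 24 h (2.08 to 3.4, 361 reads), 10.3 under control siRNA at 48 h (9.03 to 11.5, 1274 reads) and 11.4 under SAF-A siRNA at 48 h (7.67 to 16.3, 62 reads). Both 48 h libraries were high and both 24 h libraries low. The deposited intervals did not overlap between the times and overlapped between the siRNAs at each time.

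The ratio of BMF at 48 h to 24 h was 5.22 under control siRNA (3.56 to 8.13 from the deposited bounds) and 4.16 under SAF-A siRNA (2.25 to 7.84). The log2 differences were 1.92 and 1.73. Between siRNAs, the ratio of SAF-A to control was 1.39 at 24 h (0.822 to 2.41) and 1.11 at 48 h (0.667 to 1.81), so neither separated from 1 within its bounds. Among 11053 tested genes of 300 nt or longer when spliced, the log2 difference of BMF ranked 13 from the highest from 24 h to 48 h under control siRNA and 435 under SAF-A siRNA. Its SAF-A against control difference ranked 540 at 24 h and 4450 at 48 h.

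BCL2L11 (BIM; chromosome 2, 111878491 to 111926022, plus strand) encodes a BH3-only protein that binds all anti-apoptotic members and the effectors. Its level was 0.746 FPKM under control siRNA at 24 h (0.418 to 1.5, 100 reads), 0.684 under SAF-A siRNA at 24 h (0.401 to 1.26, 92 reads), 1.88 under control siRNA at 48 h (0.967 to 3.08, 218 reads) and 0.909 under SAF-A siRNA at 48 h (0.0141 to 6.93, 5 reads). The control 48 h library was the highest, and the intervals of all 4 overlapped. These deposited bounds were summed over 18 transcripts and are wide for that reason. Exact Poisson 95% intervals on the estimated reads, which cover counting error only, were 0.607 to 0.908 FPKM under control siRNA at 24 h and 1.64 to 2.15 at 48 h. Of the 4 BH3-only members that passed the filter, BMF and BCL2L11 had a higher value at 48 h than at 24 h under control siRNA, and BID and BAD did not. The log2 difference was 0.72 for BCL2L11, whose FPKM ratio was 2.52, against 1.92 for BMF.

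BID (chromosome 22, 18216906 to 18257431, minus strand) encodes the protein that caspase-8 cleaves to link death receptors to mitochondria. Its level was 26.8 FPKM under control siRNA at 24 h (24.0 to 29.8, 1463 reads), 25.8 under SAF-A siRNA at 24 h (23.9 to 27.9, 1519 reads), 23.9 under control siRNA at 48 h (22.0 to 25.9, 1311 reads) and 25.9 under SAF-A siRNA at 48 h (19.2 to 37.8, 63 reads). It had the smallest ratio of highest to lowest value of the 10 genes, and all 4 intervals overlapped.

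BAD (chromosome 11, 64037300 to 64052176, minus strand) encodes a BH3-only protein that growth factor kinases inactivate by phosphorylation. Its level was 28.03 FPKM under control siRNA at 24 h (25.2 to 30.9, 608 reads), 27.6 under SAF-A siRNA at 24 h (25.2 to 30.2, 653 reads), 24.1 under control siRNA at 48 h (21.4 to 26.9, 535 reads) and 35.4 under SAF-A siRNA at 48 h (22.7 to 49.7, 33 reads). The last value was the highest, yet its interval overlapped those of the other libraries. Of the exon bases of BAD, 33.0% also lie in exons of GPR137 on the opposite strand. The sources used here do not state that strand was used in counting, so reads of the 2 genes may not have been separated there. The same limit holds for 9.65% of the exon bases of BMF (BMF-AS1), 11.7% of BCL2L11 (MIR4435-2HG) and 4.15% of BAK1 (GGNBP1).

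BIK (chromosome 22, 43506754 to 43525718, plus strand) encodes a BH3-only protein found mainly at the endoplasmic reticulum. It was at 0.190 FPKM under control siRNA at 24 h (4 reads), 0.304 under SAF-A siRNA at 24 h (7 reads) and 0.280 under control siRNA at 48 h (6 reads), and it was listed at 0 in the SAF-A 48 h library. In that library 3 reads correspond to 3.28 FPKM, above every other value of BIK, so no difference was detectable at this depth.

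**Figure D2:**
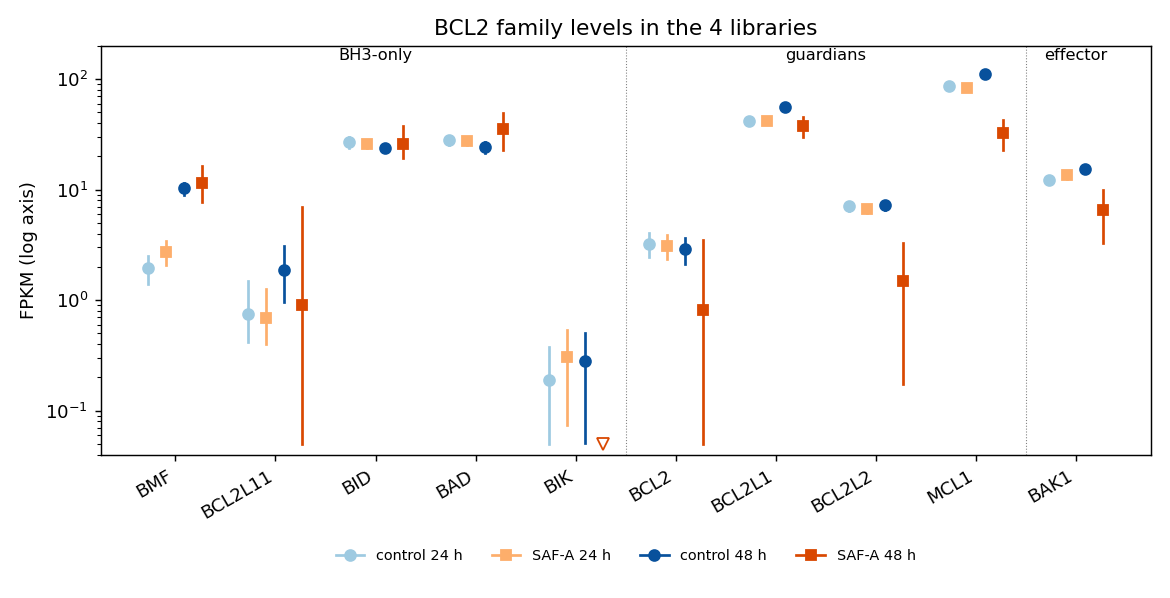
FPKM of each of the 10 genes in each library on a log axis, with deposited 95% intervals, cut at 0.05 FPKM; the open triangle marks BIK, listed at 0 in the SAF-A 48 h library. BMF is set apart by time, with 1.97 and 2.74 FPKM at 24 h and 10.3 and 11.4 FPKM at 48 h, and MCL1 by its value of 32.4 FPKM in the SAF-A 48 h library.

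MCL1 (chromosome 1, 150547027 to 150552214, minus strand) encodes a short-lived anti-apoptotic protein that binds BIM, NOXA and BAK. Its level was 86.2 FPKM under control siRNA at 24 h (82.3 to 90.3, 9408 reads), 82.4 under SAF-A siRNA at 24 h (78.4 to 86.5, 9823 reads), 111 under control siRNA at 48 h (106 to 116, 12290 reads) and 32.4 under SAF-A siRNA at 48 h (23.0 to 42.3, 146 reads). The SAF-A 48 h library lay below the other 3 with no overlap, and the control 48 h library lay above them with none. At 48 h the level under SAF-A siRNA was 29.3% of that under control siRNA, that is 3.41-fold lower (2.50 to 5.03 from the bounds). Between the siRNAs at 24 h the deposited intervals overlapped, with a ratio of 0.956. The exact Poisson intervals, which cover counting error only, were apart there, at 84.5 to 88.0 FPKM under control and 80.8 to 84.1 under SAF-A siRNA.

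BCL2L1 (BCL-X; chromosome 20, 30252261 to 30310656, minus strand) is best known for the long anti-apoptotic BCL-XL and the short pro-apoptotic BCL-XS, made by a choice of splice site. Its level was 42.2 FPKM under control siRNA at 24 h (39.8 to 44.6, 2792 reads), 41.5 under SAF-A siRNA at 24 h (39.2 to 43.8, 3003 reads), 55.6 under control siRNA at 48 h (52.6 to 58.5, 3747 reads) and 37.3 under SAF-A siRNA at 48 h (29.9 to 45.6, 107 reads). Only the control 48 h library stood apart, above the other 3. Under SAF-A siRNA at 48 h the level was 67.2% of that under control siRNA, a log2 difference of -0.56 that did not reach 2-fold. Of its exon bases, 36.3% overlap ABALON on the opposite strand.

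MCL1 and BCL2L1 were thus both higher at 48 h than at 24 h under control siRNA, by 1.28-fold (1.17 to 1.41) and 1.32-fold (1.18 to 1.47), with intervals apart. From 24 h to 48 h under SAF-A siRNA the log2 difference was -1.32 for MCL1 and -0.15 for BCL2L1, the latter with overlapping intervals.

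BCL2 (chromosome 18, 60790579 to 60986613, minus strand) encodes the founding anti-apoptotic protein of the family. Its level was 3.25 FPKM under control siRNA at 24 h (2.44 to 4.06, 313 reads), 3.11 under SAF-A siRNA at 24 h (2.35 to 3.88, 332 reads), 2.90 under control siRNA at 48 h (2.13 to 3.66, 259 reads) and 0.820 under SAF-A siRNA at 48 h (0 to 3.51, 2 reads). The first 3 libraries were alike within their intervals. The last was lower by 1.10 on the log2 scale than its control, a ratio of 0.283 that the bounds place anywhere between 0 and 1.65. Although called by its size, the difference rests on 2 reads, and the deposited intervals overlap.

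BCL2L2 (BCL-W; chromosome 14, 23775971 to 23780968, plus strand) encodes another anti-apoptotic member, known for its part in neurons and sperm cells. Its level was 7.05 FPKM under control siRNA at 24 h (6.42 to 7.70, 665 reads), 6.69 under SAF-A siRNA at 24 h (6.09 to 7.30, 690 reads), 7.20 under control siRNA at 48 h (6.56 to 7.86, 692 reads) and 1.49 under SAF-A siRNA at 48 h (0.175 to 3.27, 6 reads). The SAF-A 48 h library lay below the other 3 with no overlap, at 20.7% of its control. It was 4.84-fold lower, with bounds from 2.01 to 44.9 that reflect the 6 reads behind it. The readthrough gene BCL2L2-PABPN1 on the same strand shares 16.1% of its exon bases.

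BAK1 (chromosome 6, 33540323 to 33548070, minus strand) encodes the effector BAK, which sits on the outer mitochondrial membrane and is held there by MCL1 and BCL-XL. Its level was 12.4 FPKM under control siRNA at 24 h (11.4 to 13.3, 691 reads), 13.4 under SAF-A siRNA at 24 h (12.5 to 14.4, 822 reads), 15.2 under control siRNA at 48 h (14.2 to 16.3, 868 reads) and 6.61 under SAF-A siRNA at 48 h (3.31 to 9.92, 16 reads). The SAF-A 48 h library was again the lowest and did not overlap the others, at 43.4% of its control (2.3-fold lower, 1.43 to 4.92). Under control siRNA, BAK1 was 1.23-fold higher at 48 h than at 24 h (1.07 to 1.43). Under SAF-A siRNA it was 2.03-fold lower at 48 h than at 24 h (1.26 to 4.35). On the log2(FPKM + 1) scale that was -0.92 and not called, but it was called with a pseudocount of 0.1 and with TPM over RNAs of at least 300 nt.

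Depth and transcript length moved with the 48 h comparison between siRNAs. Over 5 equal groups of tested genes by spliced length, the median log2 difference went from 0.12 in the shortest to -0.22 in the longest. MCL1 and BCL2L2 fall in the fourth group (median -0.20), BCL2 in the longest and BAK1 in the second (median -0.01). The medians by GC content ran from -0.17 to 0.00. The part of length, depth and GC content in the differences of the members was not tested.

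Since FPKM is per length, levels can be set beside each other within a library. At 24 h the order under control siRNA was MCL1, BCL2L1, BAD, BID, BAK1, BCL2L2, BCL2, BMF, BCL2L11 and BIK. The neighbours BAD and BID, BCL2 and BMF, and BMF and BCL2L11 did not differ beyond their intervals. The order under SAF-A siRNA at 24 h was the same, with overlaps between BAD and BID, BCL2 and BMF, and BCL2L11 and BIK. At 48 h under control siRNA, BMF stood in place 6, above BCL2L2 and below BAK1, with its interval apart from both, while BAD and BID, and BCL2 and BCL2L11, overlapped. At 48 h under SAF-A siRNA, BCL2L1, BAD, MCL1 and BID led with each overlapping the next. BMF followed in place 5 and overlapped BAK1, and below them BCL2L2, BCL2L11, BCL2 and BIK overlapped each with the next.

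Summed by role, the 4 anti-apoptotic genes came to 139, 134, 176 and 72.1 FPKM at control 24 h, then SAF-A 24 h, then control 48 h, then SAF-A 48 h. The 5 BH3-only genes came to 57.7, 57.1, 60.4 and 73.6 FPKM in the same order. The anti-apoptotic sum was therefore 2.40, 2.34 and 2.92 times that of these 5 BH3-only genes in the first 3 libraries. It was 0.979 times in the SAF-A 48 h library. The BH3-only genes BBC3 and PMAIP1 (NOXA) are not members and are left out of the sum. BBC3 was at 3.80, 4.36, 5.82 and 22.6 FPKM. PMAIP1, named after its values were seen, was at 17.2, 19.8, 24.3 and 38.9 FPKM, the last from about 82 reads. With them every ratio would be lower. Most of the drop in the anti-apoptotic sum lay in MCL1, whose share of that sum was 62.2%, 61.7% and 62.8% and then 45.0%. Without MCL1 the anti-apoptotic sum was 52.5, 51.3, 65.7 and 39.6 FPKM. BMF made up 3.41% and 4.79% of the sum of the 5 BH3-only members in the 24 h libraries, and 16.98% and 15.5% in those of 48 h. These are sums of RNA levels and do not give the balance of the proteins.

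**Figure D3:**
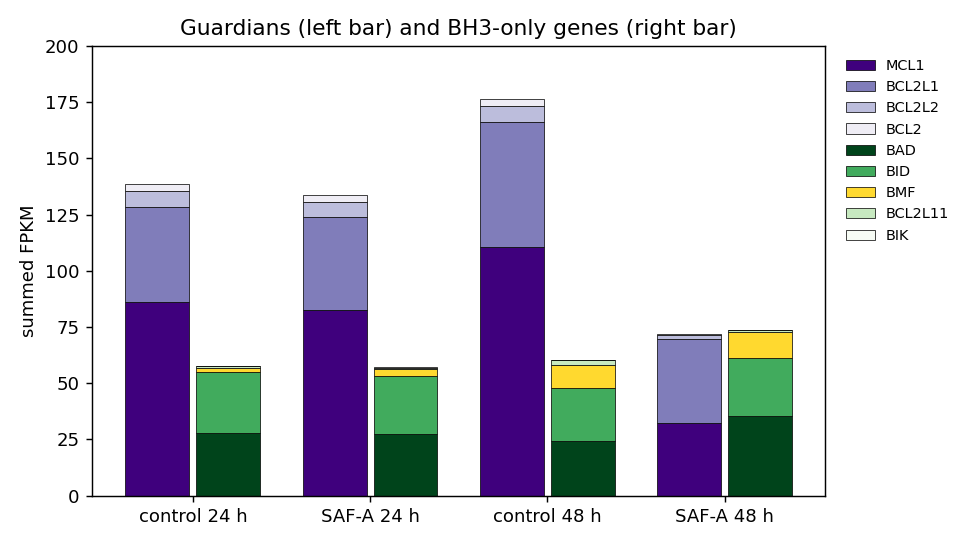
Stacked FPKM of the anti-apoptotic members (left) and the BH3-only members (right) in each library, from 0. The anti-apoptotic sum was 139, 134 and 176 FPKM in 3 libraries and 72.1 FPKM in the SAF-A 48 h library. The sum of the BH3-only members, which leaves out BBC3 and PMAIP1, lay between 57.1 and 73.6 FPKM.

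Splicing decides the function of BCL2L1, so its competing splice sites are shown. The first 15 bases of each line lie upstream of the site, and capitals mark the intron's first bases (GT). In the short form the stretch between the sites is spliced out.
BCL2L1 short form 5′ splice site, chr20:30309632-30309661, minus strand: cagagctttgaacagGTagtgaatgaactc
BCL2L1 long form 5′ splice site, chr20:30309443-30309472, minus strand: gagaacggcggctggGTaagaaccaagccc
BCL2L1 stretch in the long form only, chr20:30309458-30309646, minus strand: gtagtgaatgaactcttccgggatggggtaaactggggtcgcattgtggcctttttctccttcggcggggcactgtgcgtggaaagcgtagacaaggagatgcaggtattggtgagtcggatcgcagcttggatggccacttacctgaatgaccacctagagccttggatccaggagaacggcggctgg
The last stretch is 189 bases of coding sequence, or 63 codons, with a GC content of 56.1%, and it lies after the BH3 codons, which both forms keep. The long form, NM_138578, took 100.0% of the FPKM of BCL2L1 in each of the 4 libraries to that rounding. The short form, NM_001191, was below 0.001 FPKM in each, with upper bounds of 0.0329, 0.0302, 0.0324 and 0.759 FPKM. The bound is loosest in the SAF-A 48 h library, where a share of the short form up to 2.48% lies within the deposited bounds. No shift toward the short form was seen in the assigned shares of any library, and reads across the splice junctions were not available.

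MCL1 has 3 transcripts in the files, and they differ in exon structure. NM_021960 is the full form, NM_182763 lacks the 248-base second exon, and NM_001197320 lacks 459 bases (153 codons, GC content 70.2%) inside the first exon, at 150551440 to 150551898 of chromosome 1. The missing piece is coding throughout and does not hold the BH3 codons. Its ends are shown because the annotated intron does not begin with GT. The first 15 bases of the first line and the last 15 of the second are kept in NM_001197320, and capitals mark the first and last 2 bases of the removed piece.
MCL1 internal 5′ splice site, chr1:150551884-150551913, minus strand: ggagggcgacttttgGCtacggagaaggag
MCL1 internal 3′ splice site, chr1:150551425-150551454, minus strand: taccttcgggagcAGgccaccggcgccaag
The full form took 100.0% of MCL1 FPKM in control 24 h, 98.96% in SAF-A 24 h, 100.0% in control 48 h and 60.6% in SAF-A 48 h. The form without the GC-rich piece took the other 39.4% in the SAF-A 48 h library, at 12.8 FPKM and about 53 reads, and no more than 0.00148% in any of the other 3. The deposited bounds allow a share of 24.7% to 54.0%. NM_182763 was seen in the SAF-A 24 h library, with 1.04% and about 96 reads.

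The files hold no reads across splice junctions, so a share is the authors' division of reads among overlapping forms. Whether the 459-base piece was removed by splicing in that library was not tested. The full form alone was at 86.2, 81.6, 111 and 19.6 FPKM in the 4 libraries. Leaving out the other forms could only lower the SAF-A 48 h value, so this does not check its place as the lowest.

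BMF has 4 transcripts, of which NM_001003940 and NM_033503 hold the BH3 codons shown above, and NM_001003942 and NM_001003943 do not. NM_033503 took 61.9%, 26.6%, 68.2% and 6.21% of BMF FPKM in the libraries in that order. NM_001003940 took 21.1%, 24.2%, 6.003% and 93.8%. Among the forms without BH3 codons, NM_001003943 took 16.97% and 25.8% in the control libraries of 24 h and 48 h, and NM_001003942 took 48.9% in SAF-A 24 h alone. The FPKM of the 2 forms with BH3 codons summed to 1.63, 1.39, 7.61 and 11.4, or 83.0%, 50.8%, 74.2% and 100.0% of the gene. These forms are part of the level by which BMF was chosen, so their rise with time is no separate check. At 24 h their sum was lower under SAF-A than under control siRNA, where the gene as a whole was higher. Of the 18 BCL2L11 transcripts, 7 also lack these codons. The forms with them took 56.8%, 89.6%, 79.1% and 0.135% of BCL2L11 FPKM, the last where the gene had about 5 reads.

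For BID the forms changed places without a change in the gene's level. NM_001244567 took 70.8%, 97.9% and 97.3% in control 24 h, SAF-A 24 h and control 48 h and 0.00401% in SAF-A 48 h, where NM_001196 took 100.0%. The 2 control libraries differed as well, with NM_001196 at 27.7% at 24 h and 0.00977% at 48 h. All 7 forms of BID hold the BH3 codons. The shares of a single library should be read beside this spread between libraries of the same siRNA.

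**Figure D4:**
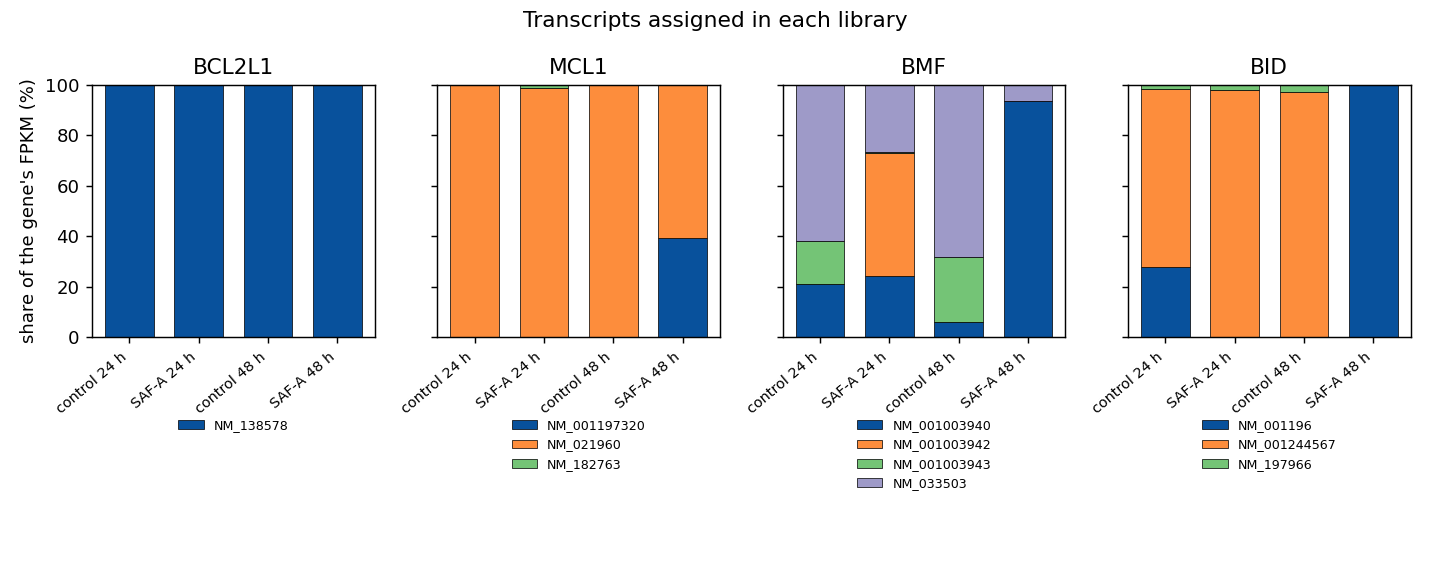
Share of each transcript in the FPKM of BCL2L1, MCL1, BMF and BID in the 4 libraries, in percent, for transcripts of at least 0.5% in any library. All BCL2L1 FPKM shown were assigned to 1 form, and MCL1 had a second form assigned 39.4% in the SAF-A 48 h library. The forms of BMF and BID varied from library to library.

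Genes whose pattern over the 4 libraries was most like that of BMF were sought by the distance between log2(FPKM + 1) profiles, each centred on its own mean, among 7609 genes that averaged 5 FPKM or more, were 300 nt or longer and had status OK in all libraries. The nearest was BTG2, an antiproliferative gene, at 3.71, 3.85, 8.89 and 15.7 FPKM in the same order (distance 0.63). CLSTN2, a calsyntenin of the synapse, was at 1.90, 2.1, 5.95 and 12.8 FPKM (0.64). PNPLA3, a lipid droplet enzyme, was at 2.62, 3.13, 8.94 and 7.27 FPKM (0.67). BTG1, a relative of BTG2, was at 7.60, 8.13, 16.8 and 32.3 FPKM (0.68). These 4 were low in both 24 h libraries and high in both 48 h libraries. Likeness over 4 libraries that share a time course is a description only. Of the other members that could enter this search, the nearest to BMF was BCL2L1 at a distance of 1.79 and the farthest was BCL2L2 at 2.95.

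**Figure D5:**
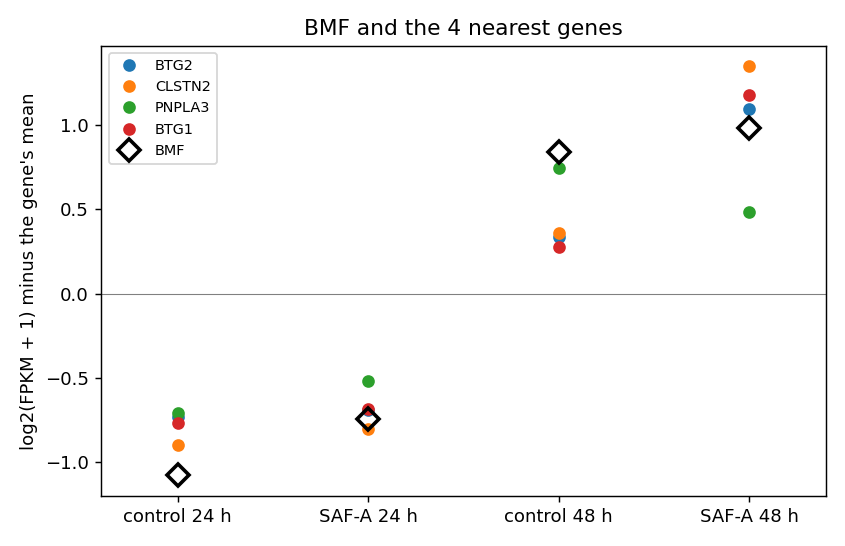
log2(FPKM + 1) minus the gene's own mean over the 4 libraries, for BMF and the 4 genes nearest to it. All 5 lie below their mean at 24 h and above it at 48 h.

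The rest of the pathway was described through lists of genes, whose counts use the same 2-fold rule and the same percentages of all tested genes as above. At 24 h, 0 genes of any of the 6 lists were called between the siRNAs. Genes are named where they were called with intervals apart, at most 4 per list by size, and any other was named after its value was seen. Values keep that order, with control siRNA first at each time.

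Of 13 other BCL2 family genes, 8 passed the filter, and 2 were at least 2-fold higher and 2 lower under SAF-A siRNA at 48 h. BAX, the partner effector of BAK, was at 104, 111, 126 and 351 FPKM. BBC3 (PUMA), a BH3-only gene, was at 3.80, 4.36, 5.82 and 22.6 FPKM. BOK was at 5.99, 5.48, 6.10 and 2.02 FPKM, and BNIP3, which acts in mitophagy, was at 50.5, 47.7, 49.6 and 22.9 FPKM. The SAF-A 48 h values rest on about 263 reads for BAX, 44 for BBC3, 6 for BOK and 37 for BNIP3. BAX was thus high in the library in which BAK1 was low, with log2 differences from control at 48 h of 1.47 and -1.09. From 24 h to 48 h, 0 of the 8 were called under control siRNA. Under SAF-A siRNA over that time 3 were higher (BAX, BBC3 and BNIP3L) and 2 lower (BOK and BNIP3). After rescaling to TPM, 4 were higher and 0 lower. Among all 11631 tested genes, that rescaling moved the higher from 1755 to 2394 and the lower from 2068 to 1623.

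All 13 genes for partners and turnover of BCL2 proteins passed the filter, with 1 higher and 4 lower under SAF-A siRNA at 48 h. VDAC1, the channel of the outer mitochondrial membrane, was at 141, 121, 147 and 4.56 FPKM, the last from about 10 reads. VDAC2, which binds BAK, was at 132, 125, 123 and 50.0 FPKM. The co-chaperones BAG3 and BAG4 were at 17.6, 18.3, 21.8 and 6.60 FPKM and at 7.62, 8.06, 5.76 and 0.594 FPKM, where the last value of BAG4 rests on 3 reads. USP9X, a deubiquitinase known to stabilise the MCL1 protein, was the 1 higher gene, at 19.1, 19.2, 19.9 and 46.4 FPKM, and was not called with TPM over RNAs of at least 300 nt. In the SAF-A 48 h library VDAC2 had about 78 reads, BAG3 19 and USP9X 689. DYNLL1 and DYNLL2, the light chains known to hold BIM and BMF, were not called in the main setting. They were at 108, 134, 107 and 103 FPKM and at 27.4, 23.0, 29.7 and 16.2 FPKM, with 65 and 26 reads in the last library. Between the siRNAs at 24 h their log2 differences were 0.32 and -0.24, both with intervals apart. At 48 h they were -0.06 with overlap and -0.84 with intervals apart. The lower count of this list at 48 h was 5 with TPM over RNAs of at least 300 nt.

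Of 16 genes of the apoptosome, caspases and inhibitors of apoptosis, all passed the filter, and 0 were higher and 4 lower under SAF-A siRNA at 48 h. CYCS, cytochrome c, was at 41.5, 43.6, 38.3 and 11.6 FPKM. XIAP, which inhibits caspases, was at 9.72, 7.95, 9.17 and 3.20 FPKM, and BIRC5 (survivin) was at 70.2, 69.3, 56.6 and 21.0 FPKM. The SAF-A 48 h values of CYCS, XIAP and BIRC5 rest on about 75, 32 and 62 reads. BIRC2, named after its values were seen, was the 1 gene lower with time under control siRNA, at 64.7 and then 28.5 FPKM, and it was at 76.1 and 33.0 FPKM under SAF-A siRNA, the last from 106 reads.

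In the death receptor arm, 9 of 10 genes passed the filter, and 2 were higher and 0 lower under SAF-A siRNA at 48 h. FAS was at 36.5, 45.0, 33.5 and 173 FPKM, and TNFRSF10A, a receptor for TRAIL, at 3.90, 3.39, 3.70 and 22.9 FPKM, with about 525 and 43 reads in the SAF-A 48 h library. The list's median log2 difference was 0.49, beside -0.12 over all tested genes. BID, through which these receptors reach the mitochondria, had a log2 difference of 0.12.

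Of 13 transcription factors known to act on BH3-only genes, 10 passed the filter. Under SAF-A siRNA at 48 h, 0 of them were higher and 3 lower. The lower count was 5 with a pseudocount of 0.1 and 7 with TPM over RNAs of at least 300 nt. Of the 11631 tested genes, 2936 and 3382 were lower under these 2 settings, and 2342 under the main one. SMAD3 was at 7.64, 5.60, 13.03 and 1.91 FPKM, MYC at 30.05, 24.4, 40.8 and 7.98 FPKM, and JUN at 47.6, 43.9, 70.0 and 18.7 FPKM. Their last values rest on about 14, 21 and 71 reads. These 3 were at their highest in the control 48 h library and their lowest in the SAF-A 48 h library. From 24 h to 48 h, 0 of the 10 were called under control siRNA.

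All 14 RNA-binding proteins known to act on BCL2L1 splicing passed the filter. Their log2 differences at 24 h were below 0 for 14 of 14 under SAF-A siRNA, and for 11 of 14 after centring on the median of genes of at least 5 FPKM. The median was -0.18, beside -0.06 over all tested genes with quartiles of -0.19 and 0.07, and 0 were called. The transcription factors above were shifted alike, with 9 of 10 below 0, 8 of 10 after centring and a median of -0.19. Medians of the other lists lay between -0.04 and 0.01. At 48 h, 0 of the 14 RNA-binding proteins were higher and 4 lower, or 7 with TPM over RNAs of at least 300 nt. With that scaling 3382 of the 11631 tested genes were lower, beside 2342 in the main setting. HNRNPA1 was at 91.7, 80.3, 90.7 and 18.7 FPKM, SRSF10 at 47.4, 34.6, 45.4 and 9.06 FPKM, SRSF3 at 138, 123, 118 and 42.5 FPKM, and HNRNPF at 141, 116, 136 and 61.9 FPKM. Their last values rest on about 37, 29, 166 and 186 reads. The rows of HNRNPF had the status FAIL in the other 3 libraries, so its intervals could not be compared. In the same library the long form of BCL2L1 still took 100.0% of the gene's FPKM, within the bounds given above.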

How the data were processed

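RNA-seq of 4 libraries, 1 per group, was analysed from the tables as deposited. Per the file headers, the authors' gene and transcript tables give FPKM with lower and upper 95% bounds and a status for each RefSeq accession. The transcript files, as deposited, also give the mean coverage of each transcript, which served for depth and as an alternative base for transcript shares. The submitters' processing notes name TopHat2 2.0.10, Bowtie2 2.1.0, TopHat, Cufflinks 2.2.1, Cuffdiff and build hg19, with no roles or order. How reads that map to several places were counted and whether strand was used are not given in the sources used here.

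Each table had 47338 rows, 97.1% of which matched a symbol in a RefSeq table of GRCh38.p14, used for names only. FPKM and bounds were summed per symbol, which for genes of several transcripts makes the bounds wider than those of a sum. Rows with the status FAIL, 0 to 37 per library and 0 among the members, can hold bounds that do not contain their value. Coverage divided by FPKM gave the mapped reads. Reads per gene were estimated from FPKM, that number and an effective length at a fragment length of 200 ± 80 nt. Intervals cover counting error only, and reads carry no molecular identifiers. The coordinates matched GRCh37, where 98.7% of 394378 introns began with GT and ended with AG, and 82.0% of 243946 exons were identical to a GENCODE exon.

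The pseudocount was 1 FPKM. With 1 library per group no test was possible. The members, lists and rules were chosen with earlier results of these data known. Named genes were the members, HNRNPU, the 5 genes nearest to BMF and, per list, at most 4 called genes with intervals apart, of which 2 are not reported here. Alternatives were a pseudocount of 0.1, other filters (none, a mean of at least 5 FPKM, a length of at least 300 nt), TPM, TPM over RNAs of at least 300 nt, centring, intervals that do not overlap, a 1.5-fold rule and Pearson's correlation. A filter without the SAF-A 48 h library was added after seeing the data. The code was tested on simulated data. Python 3.11.15, numpy 2.4.6, pandas 2.3.3, scipy 1.17.1 and matplotlib 3.10.9 were used. No protein sequences were used here.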

Additional observations from a re-analysis of the deposited data

How the results depend on the processing

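No difference of at least 2-fold changed sign under another pseudocount, scaling or centring, but that could not have come out otherwise. A pseudocount cannot change a sign, and scaling or centring moved each comparison by far less than 2-fold. Centring shifted the comparison of the siRNAs at 48 h by 0. Of 160 recomputed differences of the members, 12 changed sign, each of them below 2-fold, among them BMF between the siRNAs at 48 h (0.14, and -0.08 with TPM over RNAs of at least 300 nt) and 5 members at 24 h after centring. Of 38 recomputed counts of called members, some of which could not move because the length filter removes no member, 36 stayed within 1.5 times. The exceptions were both in the count from 24 h to 48 h under control siRNA. It went from 1 to 2 with a pseudocount of 0.1 and with a 1.5-fold rule, BCL2L11 joining BMF each time. Of all tested genes, 4.30% and 7.65% were then called in either direction. Pearson's correlation in place of distance gave 5 other genes as most like BMF (CCNJL, ING4, CTR9, TRIM21 and PANK2), so 0 were shared. With intervals that must not overlap, BCL2 left the lower members at 48 h. Rescaling to TPM moved the median of all tested genes at 24 h to -0.22, and TPM over RNAs of at least 300 nt moved it at 48 h to -0.35, and the 4 lower members at 48 h were called under both. Transcript shares from coverage equal those from FPKM by construction, so they do not bear on how reads were assigned. No paired analysis was possible because each group had 1 library, and for the same reason no replicate could be left out. Depth limits every value of the SAF-A 48 h library.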
